A study of Canis lupus familiaris with 21 samples.

Results

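The genes described here are markers of macrophages and monocytes in canine cutaneous histiocytoma (CCH), a skin tumor of dogs that arises from Langerhans cells. A set of 7 genes had been chosen by name, and 6 of them, CD68, SPP1, MRC1, CD163, CD14 and CSF1R, were among the 800 probes of the panel. AIF1 was not analysed here. All 6 were matched to dog genes of the same symbol, with the gene identifiers 111095877 (CD68), 478471 (SPP1), 487114 (MRC1), 477704 (CD163), 607076 (CD14) and 489188 (CSF1R).

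Macrophages take up particles, dead cells and cell debris, digest them in lysosomes and secrete factors that act on other cells and on the matrix. Most arise from blood monocytes that enter the tissue or from resident cells, and both depend on growth factors that act through the receptor CSF1R. Langerhans cells, the dendritic cells of the epidermis, are related to macrophages, and in mice they also depend on Csf1r and its ligand interleukin 34. None of the 6 genes is restricted to macrophages. CD68 also occurs in dendritic cells, and SPP1 is also made by lymphocytes, fibroblasts and tumor cells.

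The 21 libraries had been made from formalin-fixed tumor tissue of dogs of several breeds and fell into 4 groups. Group 3 held lymphocyte-enriched areas of stage 3 tumors (n = 5, dogs aged 1.5 to 9 years). Group 2b held lymphocyte-enriched areas of stage 2 tumors (n = 6, dogs aged 0.3 to 6 years by the labels, 1 age not given). Group 2a held tumor cell-enriched areas of stage 2 tumors (n = 5, dogs aged 0.6 to 3 years). Group 1 held stage 1 tumor tissue (n = 5, dogs aged 0.5 to 5 years, 1 age not given). Single dogs gave 2 of the group 2b libraries, while 3 came from pooled tissue of 4 dogs and 1 from pooled tissue of 3 dogs. Every other library came from a single dog. Areas had been chosen under the microscope, and the transfer of punched areas to new blocks was described for stage 2 only, so that stage and preparation cannot be told apart in the stage comparisons.

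The nCounter method counts color-coded probes bound to RNA molecules without amplification. The values are normalized counts, which are counts scaled to reference genes of the same library. Counts of the 6 genes recovered from these values lay between 81 and 18389 per library, which corresponds to a counting error of 11.1% to 0.737%. The spread between libraries was far larger than that. Library medians of the normalized counts were 324 to 363 in group 3 and 332 to 362 in group 2b, against 175 to 247 in group 2a and 159 to 259 in group 1, so that fold changes between the 2 kinds of area depend on the scaling. DV200, the share of RNA fragments above 200 nucleotides in percent, was 5.28 points higher in group 2a than in group 1 (exact permutation test, p = 0.0159). It was 64.5 to 71.2 in group 1, against 72.5 to 76.9 in group 2b and 71.2 to 75.8 in group 3. Recovered counts per library summed to 484696 to 823763 in group 1. They summed to 982552 to 1315188 in group 2b and 945399 to 1253083 in group 3. In the comparisons with group 1, DV200 was tried as a covariate, and the part of depth was not tested. The summed level of 10 T cell markers was 11792 to 20700 in group 2b, against 2546 to 6640 in group 2a and 501 to 9445 in group 1. That of 8 B cell markers was 9636 to 20178 in group 2b, against 460 to 1292 in group 2a and 373 to 1423 in group 1. Group 1 libraries were mixed in other cells too. Their 10 measured granulocyte and mast cell markers summed to 1811 to 29643, against 709 to 3432 in group 2b. Their 2 measured keratinocyte markers summed to 322 to 5617, against 91.4 to 1269 in group 2b. The 13 measured Langerhans and dendritic cell markers summed to 4862 to 7485 in group 2b, 7292 to 13202 in group 2a and 7085 to 12760 in group 1. These markers did not fall as a set. In the test across all probes used below, CCR7, CD83 and XCR1 were higher in group 2b than in group 2a. FLT3, CCR6 and CD86 were lower there, and the other 7 did not pass. The sums lean on abundant probes such as CD86, which averaged 2594 normalized counts in group 2b and 4701 in group 2a. CD207, which defines Langerhans cells, had only 7.56 to 38.6 normalized counts in any library. In such bulk tissue, fewer cells of a type and less RNA per cell cannot be told apart, and the part of cell composition in the differences below was not tested.

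SPP1 and CD68 were higher in the lymphocyte-enriched areas than in stage 1 tumor tissue, and MRC1 was lower there. SPP1 differed most, with a log2 fold change of 4.44 (SE 0.75) in group 2b and 3.50 (SE 0.78) in group 3 over group 1. CD68 was higher by 1.36 (SE 0.31) and 1.29 (SE 0.33), although at equal library medians it kept this direction without passing the test. MRC1 had log2 fold changes of -0.97 (SE 0.35) in group 2b and -1.002 (SE 0.36) in group 3. Both calls of MRC1 were lost with DV200 as a covariate, and also when certain single libraries of group 1 were left out. CD163, CD14 and CSF1R passed in no comparison, and no marker passed between stages within 1 kind of area.

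**Figure D1:**
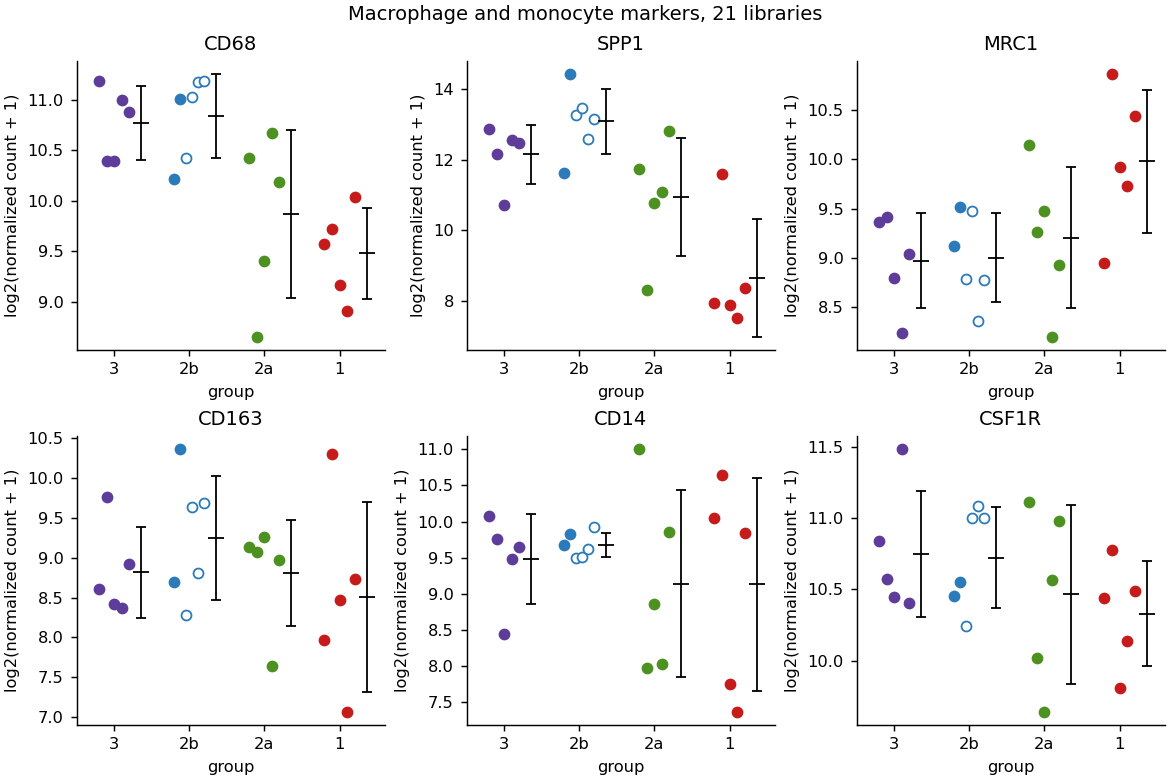
Levels of the 6 markers in each of the 21 libraries, as log2 of the normalized count plus 1 (vertical axis), by group (horizontal axis). Each circle is a library, open circles are pools of dogs, and the bar beside each group is the mean with the SD. The 6 SPP1 values of group 2b lie above all 5 of group 1, and CD14 values lie closest together in group 2b.

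Counts of called markers have to be read against all 800 probes. Calls required an adjusted p no higher than 0.05. Between groups 2b and 2a, 2 of 6 markers were called, against 38.8% of all probes, and none had groups that did not overlap, against 25.4% of probes. Against group 1, 3 markers were called in group 2b (47.1% of probes) and 2 did not overlap (28.5%). Between groups 3 and 1, 3 were called (39.9%) and CD68 alone did not overlap (23.5%). Between groups 3 and 2a, CD68 alone was called (35.2%) and none was without overlap (22%). The share of markers called was thus near or below that of all probes, except for groups 2b and 1 and groups 3 and 1, where it was slightly above.

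The stage comparisons within 1 kind of area gave fewer calls. Between groups 2a and 1, no marker was called (0.125% of probes, which is 1 probe) and none was without overlap (2.88%), and 114 probes had an unadjusted p under 0.05. Between groups 3 and 2b, no marker was called (0.125%, again 1 probe) and none was without overlap (0.5%), and 50 probes had an unadjusted p under 0.05. DESeq2 called 24 probes between groups 2a and 1 and 0 between groups 3 and 2b, and no marker was among them. The widest interval between groups 3 and 2b was that of SPP1, with a log2 fold change of -0.93 (95% confidence interval -2.49 to 0.63).

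**Figure D2:**
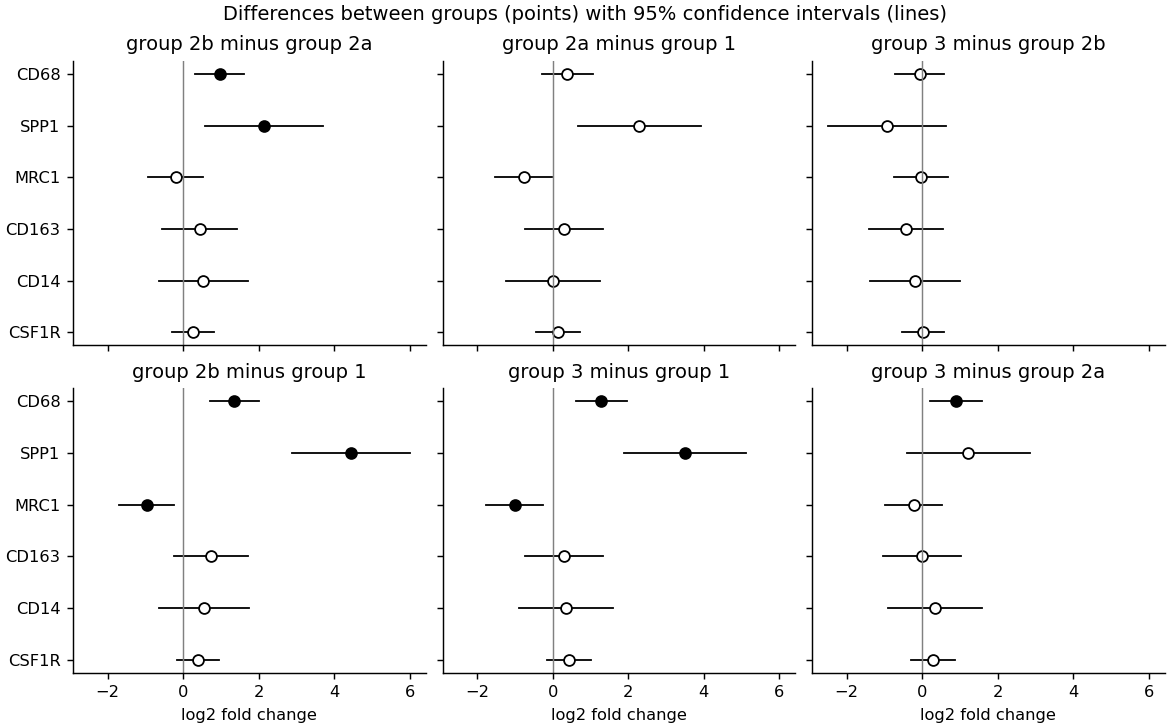
Log2 fold changes (horizontal axis) of the 6 markers (vertical axis) in the 6 comparisons of groups at the deposited scale. Points are fitted values, lines are 95% confidence intervals, and filled points passed an adjusted p of 0.05. SPP1 has the largest value in 5 comparisons, MRC1 is below 0 in all 6, and no marker passed in groups 2a against 1 or 3 against 2b.

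SPP1 encodes osteopontin, a secreted matrix protein and cytokine that binds integrins and CD44. It had the widest range of the 6 genes. In group 3 the libraries had 7486, 4597, 1685, 6030 and 5645 normalized counts. In group 2b they had 3154, 22043, 9840, 11289, 6186 and 9076 normalized counts. In group 2a they had 3393, 313, 1764, 2154 and 7211, and in group 1 they had 244, 3079, 235, 180 and 326 normalized counts. Thus 4 of the 5 stage 1 libraries lay below every library of groups 3 and 2b, and replicate 2 of group 1 was the exception.

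SPP1 averaged 10265 ± 6459 normalized counts in group 2b and 2967 ± 2615 in group 2a (SD, n = 6 and 5). In limma's test across all probes this was a log2 fold change of 2.15 (SE 0.75, adjusted p = 0.0280), but the groups overlapped, and with each library shifted to an equal median it was 1.43 (adjusted p = 0.0839). The call was also lost without replicate 2 of group 2a (1.49, adjusted p = 0.107), replicate 2 of group 2b (1.88, adjusted p = 0.0661) or replicate 4 of group 2b (2.07, adjusted p = 0.0515), without the pools (2.09, adjusted p = 0.233), with both edgeR fits (1.79 and 1.42) and with DESeq2 (1.45). Against group 1, at 813 ± 1268 normalized counts, group 2b was higher by a log2 fold change of 4.44 (SE 0.75, adjusted p = 0.0001) with no overlap. Group 3, at 5089 ± 2166, was higher than group 1 by 3.50 (SE 0.78, adjusted p = 0.0015). SPP1 ranked 2 of 800 probes by the fold change of group 3 over group 1 and also by that of group 2a over group 1. The difference between groups 2a and 1 was 2.29 (SE 0.78, unadjusted p = 0.0082) and missed the threshold after adjustment over all probes (adjusted p = 0.200). Without replicate 2 of group 2a, which had 313 normalized counts, it passed, with a log2 fold change of 2.95 (adjusted p = 0.0462). By mean log2 level the order was group 2b, group 3, group 2a and group 1, and no 2 neighbors in this order differed past the threshold.

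CD68 encodes a glycoprotein of lysosomes and endosomes and is the usual histologic marker of macrophages. It had 2333, 1340, 1342, 2038 and 1881 normalized counts in group 3, and 1187, 2056, 1369, 2079, 2317 and 2320 in group 2b. In group 2a it had 1369, 402, 678, 1630 and 1164 normalized counts, and in group 1 it had 759, 841, 573, 479 and 1052. Every library of groups 3 and 2b was thus above every library of group 1, while groups 2b and 2a overlapped.

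CD68 averaged 1888 ± 489 normalized counts in group 2b and 1048 ± 502 in group 2a (SD), a log2 fold change of 0.97 (SE 0.31, adjusted p = 0.0189) that was 0.26 after the shift to equal library medians (adjusted p = 0.496). The call was also lost without replicate 2 (0.67, adjusted p = 0.0722) or 3 (0.85, adjusted p = 0.0508) of group 2a, without the pools (0.74, adjusted p = 0.294), with quantile normalization (0.56), with edgeR and TMM factors (0.44) and with DESeq2 (0.49). Against group 1, at 741 ± 226, CD68 was higher in group 2b by 1.36 (SE 0.31, adjusted p = 0.0015) and in group 3, at 1787 ± 438, by 1.29 (SE 0.33, adjusted p = 0.0039). At equal library medians both kept their direction and missed the threshold, at 0.67 (adjusted p = 0.0653) and 0.63 (adjusted p = 0.102), as did the first without the pools, at 1.13 (adjusted p = 0.0934). Group 3 also exceeded group 2a by 0.90 (SE 0.33, adjusted p = 0.0380), which was the only pair of neighbors in the order group 2b, group 3, group 2a and group 1 that differed past the threshold. This call was lost without replicate 2 (0.60) or 3 (0.78) of group 2a or replicate 1 (0.80), 4 (0.84) or 5 (0.87) of group 3, in the fit of only the 2 groups (0.90, adjusted p = 0.0920) and with edgeR at the deposited scale (0.77, adjusted p = 0.0644). The other scalings also ended it, at 0.21 for equal library medians, 0.53 for quantile normalization (adjusted p = 0.173), 0.41 for edgeR with TMM factors (adjusted p = 0.307) and 0.45 for DESeq2 (adjusted p = 0.287). Between groups 2a and 1 the value was 0.39 (95% confidence interval -0.29 to 1.07).

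MRC1 encodes the mannose receptor CD206, an endocytic receptor of macrophages and some dendritic cells. It was the only marker of the 6 whose mean log2 level was highest in stage 1. Libraries of group 3 had 660, 680, 444, 303 and 527 normalized counts, and those of group 2b had 555, 729, 440, 709, 328 and 439. Libraries of group 2a had 1129, 615, 712, 294 and 487 normalized counts, and those of group 1 had 492.99, 1854, 966, 845 and 1381. In group 1, 4 of 5 libraries lay above all of groups 3 and 2b, and replicate 1 lay within their range.

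MRC1 averaged 533 ± 161 normalized counts in group 2b and 1108 ± 524 in group 1 (SD), a log2 fold change of -0.97 (SE 0.35, adjusted p = 0.0262). In group 3, at 523 ± 157, it was also lower than in group 1, with a log2 fold change of -1.002 (SE 0.36, adjusted p = 0.0328). Both differences were larger at equal library medians, at -1.66 (adjusted p = 0.0002) and -1.66 (adjusted p = 0.0004). Both missed the threshold without replicate 2 of group 1, at -0.75 (adjusted p = 0.0866) and -0.78 (adjusted p = 0.0974), or without replicate 5 of group 1, at -0.86 and -0.89, or with DV200 as a covariate, at -1.11 in each. The first was also lost without replicate 5 of group 2b (-0.84) or without the pools (-0.66), and the second without replicate 3 (-0.96), 4 (-0.82) or 5 (-1.02) of group 3 or in the fit of only the 2 groups (adjusted p = 0.0528). Group 2a, at 647 ± 311, lay between, with a log2 fold change over group 1 of -0.77 (SE 0.36, unadjusted p = 0.0451, adjusted p = 0.337). Between groups 2b and 2a the value was -0.20 (SE 0.35, adjusted p = 0.696) at the deposited scale and -0.91 (adjusted p = 0.0193) at equal library medians, where it passed. No neighbors in the order group 1, group 2a, group 2b and group 3 differed past the threshold at the deposited scale.

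CD163 encodes the scavenger receptor for complexes of hemoglobin and haptoglobin, CD14 the coreceptor by which monocytes and macrophages bind bacterial lipopolysaccharide, and CSF1R the receptor of colony-stimulating factor 1 and interleukin 34. None of the 3 was called in any of the 6 comparisons of groups. The log2 fold changes of CD163 and CD14 between groups 2b and 2a were 0.43 (95% confidence interval -0.56 to 1.42) and 0.54 (-0.65 to 1.72), and that of CSF1R was 0.26 (-0.30 to 0.82). All 3 changed sign at equal library medians, to -0.28, -0.18 and -0.46.

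CD163 had 389, 869, 340, 331 and 484 normalized counts in group 3, and 414, 1313, 311, 795, 447 and 824 in group 2b. It had 559, 536, 610, 198 and 500 in group 2a, and 250, 1262, 352, 133 and 424 in group 1. Single libraries stood high in groups 3, 2b and 1, and the group medians of 389, 621, 536 and 352 normalized counts, in the order of groups 3, 2b, 2a and 1, lay close together by comparison.

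CD14 had 1083, 868, 347, 716 and 799 normalized counts in group 3, and 819, 906, 724, 730, 790 and 971 in group 2b. It had 2046, 250, 461.5, 262 and 924 in group 2a, and 1061, 1600, 215, 165 and 913 in group 1. The group means were nearly equal, at 763 ± 269, 823 ± 98.4, 789 ± 754 and 791 ± 605 normalized counts (SD) in groups 3, 2b, 2a and 1, but their spread was not. The highest library exceeded the lowest 3.12-fold in group 3 and 1.34-fold in group 2b, against 8.17-fold in group 2a and 9.71-fold in group 1. Pools average over dogs and make up 4 of the 6 libraries of group 2b, so that the spread there is not that between single dogs.

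On the log2 scale the SD of CD14 within groups was 0.43 in the lymphocyte-enriched libraries of groups 3 and 2b and 1.38 in the tumor cell-rich libraries of groups 2a and 1. It was thus 3.18 times as large in tumor cell-rich tissue, the rank of this ratio being 39 of 800 probes. The median ratio of all probes was 1.32, and 69.75% of probes had a larger SD in tumor cell-rich libraries. All 6 markers did, with ratios of 1.87 for SPP1, 1.70 for CD68, 1.56 for MRC1, 1.39 for CD163 and 1.30 for CSF1R. These ratios are given as a description, with no test.

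CSF1R varied least. It had 1834, 1518, 1394, 2859 and 1356 normalized counts in group 3, and 1398, 1497, 1209, 2051, 2168 and 2050 in group 2b. It had 2214, 1037, 798, 1517 and 2020 in group 2a, and 1385, 1752, 896, 1123 and 1438 in group 1. The groups overlapped in all 6 comparisons, and the group means were 1792 ± 626, 1729 ± 408, 1517 ± 609 and 1319 ± 325 normalized counts (SD) in groups 3, 2b, 2a and 1.

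Exact permutation tests, adjusted over all 800 probes, kept fewer calls. SPP1 and CD68 passed between groups 2b and 1 (exact permutation test, both p = 0.0043, adjusted p = 0.0152), and CD68 passed between groups 3 and 1 (exact permutation test, p = 0.0079, adjusted p = 0.0338). These are the smallest p values that 6 against 5 and 5 against 5 libraries can give. SPP1 between groups 3 and 1 had an exact permutation p of 0.0159 (adjusted p = 0.0525). For group 2b against group 2a the exact permutation p was 0.0303 for CD68 (adjusted p = 0.0739) and 0.0216 for SPP1 (adjusted p = 0.0571). MRC1 had an exact permutation p of 0.0260 between groups 2b and 1 (adjusted p = 0.0577) and 0.0397 between groups 3 and 1 (adjusted p = 0.0953).

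**Figure D3:**
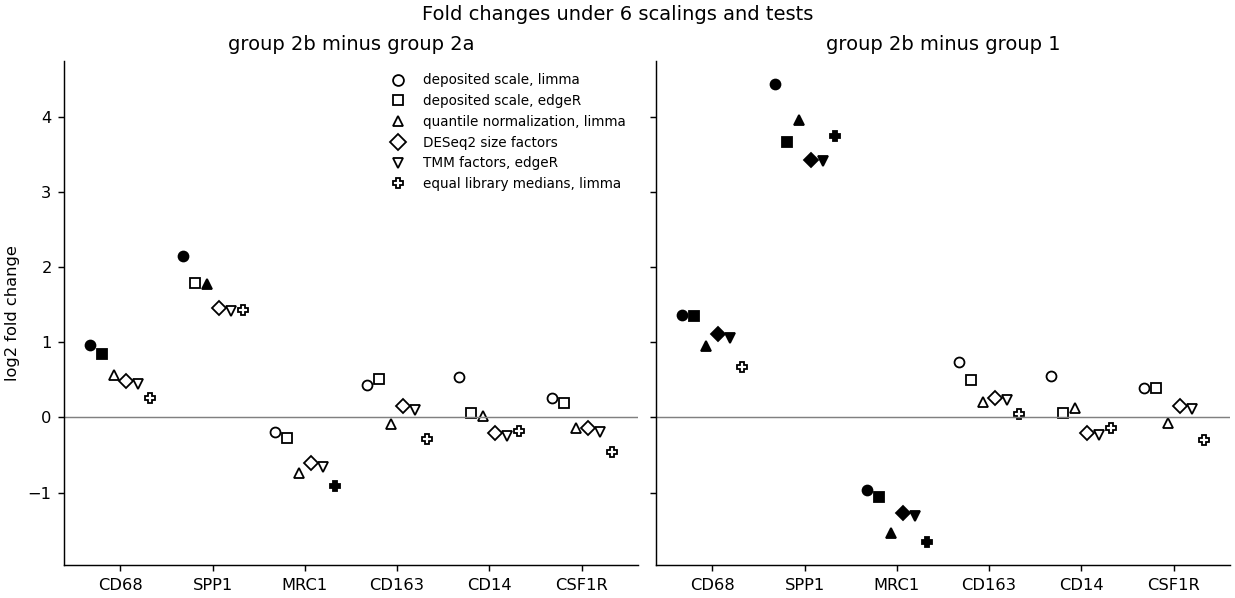
Log2 fold changes (vertical axis) of the 6 markers (horizontal axis) under 6 combinations of scaling and test, for group 2b against group 2a and against group 1. Filled symbols passed an adjusted p of 0.05. SPP1 is at 3.42 or higher and passes in all 6 against group 1, and CD14, CD163 and CSF1R fall on both sides of 0 against group 2a.

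Scaling mattered most for the 2 kinds of area. Over all probes, the median difference of group 2b from group 2a was 0.23 on the log2 scale as deposited and -0.48 at equal library medians. CD68, at 0.97 and 0.26, lay above the median probe under both scalings and passed under the first. For groups 2b and 1 the median probe lay at 0.15 and -0.53, and SPP1 was at 4.44 and 3.75 (adjusted p = 0.0002 for the last). SPP1 between groups 2b and 1 and between groups 3 and 1 passed under every alternative fit run with limma, edgeR or DESeq2, with log2 fold changes of 3.42 to 5.17 and 2.46 to 4.24, although the exact permutation test adjusted over all probes was missed for groups 3 and 1 (adjusted p = 0.0525).

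Ratios of 2 markers within a library do not depend on its scaling. The level of a ratio also reflects how well each probe binds, so that only its difference between groups is read. The log2 ratio of SPP1 over MRC1 was 3.50, 2.76, 1.92, 4.31 and 3.42 in group 3, and 2.51, 4.92, 4.48, 3.99, 4.23 and 4.37 in group 2b. It was 1.59, -0.97, 1.31, 2.87 and 3.88 in group 2a, and -1.01, 0.73, -2.03, -2.23 and -2.08 in group 1. Groups 3 and 2b did not overlap with group 1, and group 2a overlapped with all others.

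The log2 ratio of CD68 over MRC1 likewise separated group 3 (0.98 to 2.75) and group 2b (1.10 to 2.82) from group 1 (-1.14 to 0.62). That of CD68 over CSF1R separated group 2b (-0.24 to 0.46) from group 1 (-1.23 to -0.45), and group 3 overlapped with group 1 by a little (-0.49 to 0.47). Of the 15 ratios, 7 had no overlap between groups 2b and 1 and 4 had none between groups 3 and 1, against 28.1% and 23% of the ratios of all pairs of probes. Each of these had the smallest p that an exact permutation test allows (0.0043 between groups 2b and 1 and 0.0079 between groups 3 and 1, unadjusted), which follows from the lack of overlap. In the comparisons of groups 2b and 2a, 2a and 1, and 3 and 2b no ratio was without overlap. Of the ratios of all pairs of probes, 22.8%, 2.01% and 0.938% were, in the same order. None of the 45 differences in these comparisons passed an exact permutation test adjusted over the 45 (8 had an unadjusted p under 0.05).

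**Figure D4:**
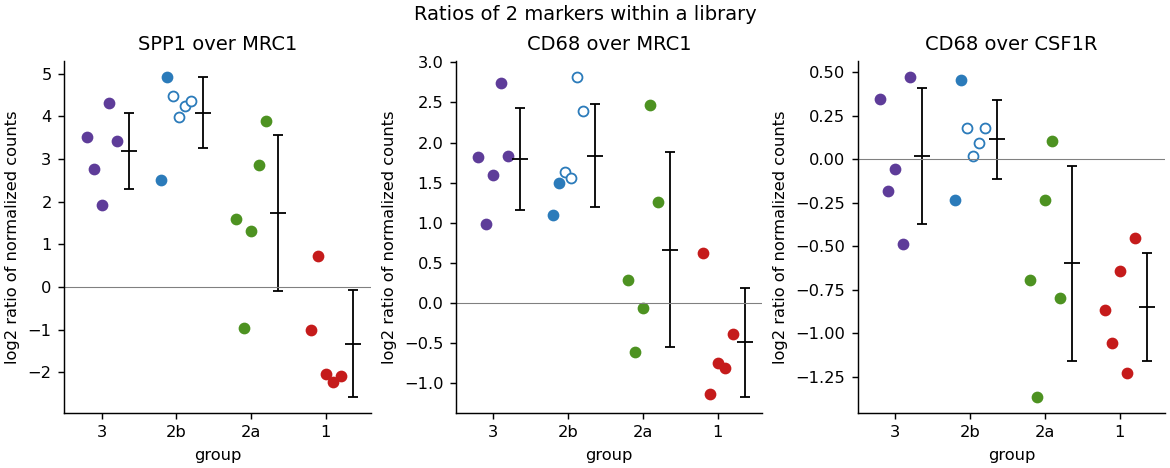
Log2 ratios of the normalized counts of 2 markers in the same library (vertical axis) by group (horizontal axis), for SPP1 over MRC1, CD68 over MRC1 and CD68 over CSF1R. Circles are libraries, open circles are pools of dogs, and bars are the mean with the SD. For SPP1 over MRC1 the highest group 1 library is at 0.73 and the lowest library of groups 3 and 2b at 1.92.

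Within each kind of area, 13 of the 15 pairs of markers had a positive Pearson's r, but none of the 30 correlations passed a permutation test adjusted over the 30 (5 had an unadjusted p under 0.05). The share of positive r over all pairs of probes was not computed. Group means were not subtracted here, so that differences between the 2 groups of an area enter r. SPP1 and MRC1 had r of -0.071 in the tumor cell-rich libraries, but 0.73 in group 1 and -0.023 in group 2a. CD68 and CSF1R had the highest r in both areas. It was 0.68 in the 11 lymphocyte-enriched libraries (permutation p = 0.0212, adjusted p = 0.198), where Spearman's rho was 0.57 (permutation p = 0.0701), and 0.73 in the 10 tumor cell-rich libraries (permutation p = 0.0173, adjusted p = 0.198), where rho was 0.79 (permutation p = 0.0081). Without the 2 libraries farthest from the median of CD68, r was 0.68 and 0.82. CD68 and MRC1 had r of -0.11 and -0.17 in the lymphocyte-enriched and the tumor cell-rich libraries.

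The probes most like each marker were found by Pearson's r over the 21 libraries after the mean of each group was subtracted. Since all probes of a library share its scaling and depth, and the probes were picked as the highest of 800, r is a description with no test. CD14 was most like TLR2 (r = 0.91), TLR4 (0.88) and CEBPB (0.87), while its median r with all probes was 0.004. TLR2 and TLR4 encode Toll-like receptors that signal together with CD14, and CEBPB encodes a transcription factor of myeloid cells. In group 1, where CD14 ran from 165 to 1600 normalized counts, TLR2 had 371, 658, 152, 175 and 398 and TLR4 had 553, 1225, 319, 208 and 883 in replicates 1 to 5. Replicate 2 was the highest of group 1 in all 3 genes, and replicates 3 and 4 were the lowest.

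**Figure D5:**
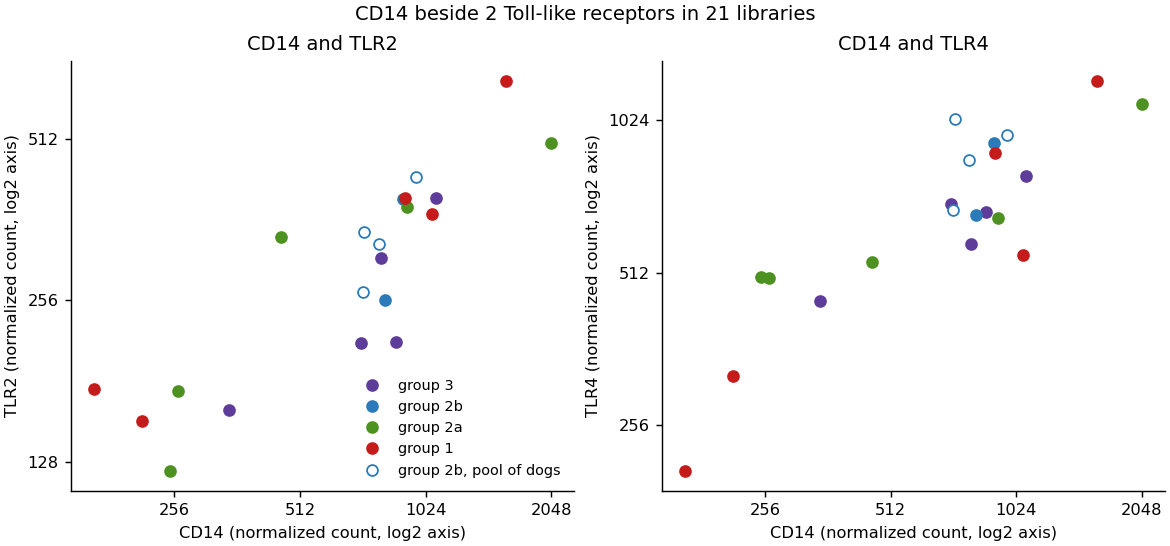
Normalized counts of TLR2 and TLR4 (vertical axes, log2) against CD14 (horizontal axis, log2) in the 21 libraries, colored by group, with pools of dogs as open circles. The libraries with the lowest CD14, of groups 1 and 2a, also have low TLR2 and TLR4, and the pools of group 2b lie together.

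SPP1 was most like CD38 (r = 0.88), an ectoenzyme of activated lymphocytes and macrophages, IKBKE (0.88), a kinase of interferon signaling, and CEBPB (0.85). CD163 was most like PLAUR (0.86), the urokinase receptor, CD209 (0.80), a lectin of macrophages and dendritic cells, and PLAU (0.77), urokinase itself. MRC1 was most like FAS (0.80), a death receptor, PLAUR (0.79) and TNFSF13 (0.76), a B cell survival factor that myeloid cells secrete. CD68 was most like ITGAM (0.77), the integrin CD11b of myeloid cells, and JAK3 (0.76), a kinase of cytokine receptors, and CSF1R was most like JAK3 (0.77), TNFRSF14 (0.74) and CD68 (0.71). After the shift to equal library medians the first-ranked probe was the same for SPP1, CD163 and CD14, but IKBKE dropped to place 10 for SPP1 and FAS to place 9 for MRC1.

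Other genes of macrophage biology were taken from 4 lists. Of their 66 measured genes, 28 were called between groups 2b and 2a (42.4%, with 26 higher and 2 lower), against 38.8% of all probes (258 higher and 52 lower). By list, 6 of 19 measured receptors and scavengers were higher and 1 lower (list median log2 fold change 0.12, all probes 0.23). Of 18 genes of monocyte recruitment and growth, 10 were higher and 1 lower (median 1.12). Of 22 lysosomal, complement and secreted products, 7 were higher and 0 lower (median 0.27), and of 7 myeloid transcription factors, 3 were higher and 0 lower (median 0.70). At equal library medians, the numbers of higher genes were 3, 4, 3 and 1. Of all 800 probes, 111 were called higher and 306 lower at that scaling.

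The called genes of these lists with the largest fold changes between groups 2b and 2a were CD4, CD209, IDO1, IRF8, CCL4, NOS2, MARCO, CCL3, CCL5 and CSF1. CSF1, a ligand of CSF1R, had 2547 ± 815 normalized counts in group 2b and 679 ± 317 in group 2a (SD), a log2 fold change of 1.97 (SE 0.36), and it also passed at equal library medians (1.25, adjusted p = 0.0024). CD209 had 4270 ± 2002 in group 2b, against 650 ± 405 in group 2a. MARCO, a scavenger receptor, had 235 ± 156 in group 2b, against 58.6 ± 61.2 in group 2a. MARCO and CCL5 did not pass at equal library medians, and the other 8 did. CD4, CCL3, CCL4, CCL5 and IRF8 are also expressed by lymphocytes, whose markers CD3E and MS4A1 had 3446 to 6133 and 479 to 1192 normalized counts in group 2b, against 815 to 2210 and 18.1 to 72.4 in group 2a.

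The 2 lower genes, named here after their values had been seen, were TYROBP and CX3CR1. TYROBP, a signaling adaptor of myeloid and natural killer cells, had 4210 ± 585 normalized counts in group 2b and 8055 ± 1905 in group 2a (SD), a log2 fold change of -0.91 (SE 0.15) with no overlap. CX3CR1, the receptor for fractalkine on monocytes, had 21.8 ± 7.43 in group 2b, against 70.2 ± 44.6 in group 2a (log2 fold change -1.51, SE 0.43, adjusted p = 0.0092). Its group 2b values were low, at only 9.64 to 30.3 normalized counts, so that this fold change rests on few counts. Between groups 2a and 1 and between groups 3 and 2b, no gene of the 4 lists was called in either direction.

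Against stage 1, 37 of the 66 measured genes of the 4 lists were called for group 2b (56.1%, with 32 higher and 5 lower), where 47.1% of all probes were called. For group 3, 31 of the 66 were called (47%, with 27 higher and 4 lower), where 39.9% of all probes were. APOE, the apolipoprotein that macrophages secrete, had 5065 ± 2728 normalized counts in group 3 and 6428 ± 3927 in group 2b, against 1072 ± 222 in group 1 (SD), with no overlap in both comparisons. Its log2 fold changes were 2.06 (SE 0.56, adjusted p = 0.0062) and 2.33 (SE 0.53, adjusted p = 0.0014). C1QB, a chain of complement C1q, had 3959 ± 1314 in group 3 and 1250 ± 1029 in group 1 (2.14, SE 0.55, adjusted p = 0.0041). S100A9, a calcium-binding protein of neutrophils and monocytes, was lower in group 2b, at 513 ± 296, than in group 1, at 4147 ± 3525 (-2.69, SE 0.96, adjusted p = 0.0262). The groups overlapped, at 125 to 880 in group 2b and 622 to 8727 in group 1. S100A9 was not called between groups 3 and 1, and the related genes S100A8 and S100A12 were not called between groups 2b and 1.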

How the data were processed

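RNA of formalin-fixed CCH tissue was measured on the nCounter Canine IO Panel. The deposited values were signal, that is, probe counts that the authors had put through quality control and normalized to reference genes in nSolver, and per the labels R 3.3.2 was used in their processing. Whole counts were recovered by dividing each library by its step, and 100% of values were whole within 0.01 in all 21 libraries, apart from 18 values raised to 1. Recovered counts summed to 484696 to 1315188 per library.

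All 800 probes entered a linear model (limma 3.58.1 under R 4.3.3, eBayes with trend) on log2 of the value plus 1, with 4 group means over 21 libraries. Fold changes are on this scale. Tests were two-sided, adjusted by Benjamini-Hochberg over 800 probes and called where the adjusted p did not exceed 0.05. The fit was tested on simulated data. Exact permutation tests and permutation tests with 100000 resamples used numpy 2.4.6. Alternatives covered the scaling, the pseudocount, a filter on low values, the covariate DV200, the pools, single libraries, edgeR 4.0.16 and DESeq2 1.42.0 on recovered counts. Genes of like pattern were the 3 probes with the highest r (1 of them is not reported here), and list genes were named in order of fold change, at most 10 per comparison. The members and lists were chosen with earlier results of these data known. All 6 contrasts of groups were fitted, and the alternatives for those of groups 3 and 2b with group 1 and of group 3 with group 2a, the ranges of ratios in them and the spread within areas were chosen after seeing the data. Ages and DV200 are those of the labels, and the study's own sample list differs from them in 1 age within a group 2b pool and in the DV200 of replicate 5 of group 3. Contrasts share libraries and are not independent. No link between dogs of different groups was given in the labels, so that p values measure the spread between these libraries, and those with group 2b that between pools and single dogs.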

Additional observations from a re-analysis of the deposited data

Results flagged for a closer look

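A library far from the rest of its group was found in 4 of the 24 sets of libraries tested (6 markers in 4 groups). The rule used the gap to the nearest library as a share of the range. It was applied to normalized counts and not to their log2, and the sets share libraries. The number that chance alone would mark is therefore not known. SPP1 in group 1 replicate 2 was at 3079 normalized counts, and the next highest library was at 326. CD163 in the same library was at 1262, with the next highest at 424. CD163 in group 3 replicate 2 was at 869, with the next highest at 484. CD163 in group 2a replicate 4 was at 198, with the next lowest at 500. Replicate 2 of group 1 was also the highest of its group in MRC1, CD14 and CSF1R, and its library median of 247 lay within the range of group 1 (159 to 259). For MRC1, the values without this library are given above, and SPP1 kept its calls for groups 2b and 3 against group 1 in every alternative fit. For CD163, CD14 and CSF1R, fits of groups 2b and 3 against group 1 without it are not reported here.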

How the results depend on the processing

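The deposited scale sets reference genes equal between libraries, and whether this holds between lymphocyte-enriched and tumor cell-rich tissue was not tested. The number of probes called between groups 2b and 2a was 310 as deposited, 417 at equal library medians and 327 with quantile normalization. It was 289 with edgeR at the deposited scale, 342 with TMM factors and 353 with DESeq2. With 1 library left out it was 257 to 304, and without the pools, where 2 libraries of group 2b remain, it was 123. Of the markers, 2 were called there, against 1 at equal library medians (MRC1, lower), with quantile normalization, with edgeR at the deposited scale and with the replicate block (SPP1 at 2.14, adjusted p = 0.0696), 0 without the pools, with TMM factors and with DESeq2, and 0 to 2 with 1 library left out. As deposited, 83.2% of called probes were higher in group 2b, against 26.6% at equal library medians, 42.2% with quantile normalization, 43.3% by TMM and 48.2% by DESeq2.

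Of all probes, 1 was called between groups 2a and 1, against 0 at equal library medians, with quantile normalization, without the mean-variance trend, with DV200 as a covariate, with the replicate block and with edgeR at the deposited scale, 7 with TMM factors, 24 with DESeq2 and 0 to 12 with 1 library left out. Of the markers 0 were called, and 0 to 1 with 1 library left out. For groups 3 and 2b, 1 probe was called, against 3 with a pseudocount of 10, 0 in the fit of only the 2 groups, without the trend, with DV200, with the replicate block, without the pools, with both edgeR fits and with DESeq2, and 0 to 18 with 1 library left out, while 0 markers were called under every alternative run. Same-numbered libraries did not deviate together (r from -0.36 to 0.20), so the replicate block joins libraries that share only a number.

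Log2 fold changes that changed sign were not called under either setting. For groups 2b and 2a, MRC1 was at 0.11 without the pools and ran from -0.45 to 0.035 with 1 library left out. CD163 was at -0.28 at equal library medians and -0.084 with quantile normalization. CD14 was at -0.18 at equal library medians, -0.24 with TMM factors and -0.21 with DESeq2. CSF1R was at -0.46 at equal library medians, -0.13 with quantile normalization, -0.20 with TMM factors and -0.15 with DESeq2. For groups 2a and 1, edgeR at the deposited scale gave -0.00998 for CD163 and -0.0048 for CD14, and DESeq2 gave -0.0082 for CD14. With 1 library left out, CD163 ran from -0.056 to 0.75, CD14 from -0.45 to 0.39 and CSF1R from -0.027 to 0.34. For groups 3 and 2b, CD68 was at 0.16 without the pools, MRC1 at 0.011 with quantile normalization and 0.0012 with DV200 as a covariate, and CSF1R at -0.056 with DV200. With 1 library left out, CD68 ran from -0.19 to 0.026, MRC1 from -0.16 to 0.15, CD14 from -0.35 to 0.065 and CSF1R from -0.16 to 0.11. The cause was not tested.

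DV200 as a covariate ended the calls of MRC1 between groups 2b and 1 (-1.11, adjusted p = 0.128) and between groups 3 and 1 (-1.11, adjusted p = 0.0951), and SPP1 kept its calls in both. The replicate block also ended the call of MRC1 between groups 2b and 1 (-0.93, adjusted p = 0.0523). The 95% confidence intervals of CD14 spanned more than 2 units on the log2 scale in each comparison.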
